A study of Homo sapiens and Mus musculus with 47 samples.

Results

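Chrom-seq with the TAF3 reader was made in HCT116 cells, a human colon cancer line, as 6 of the 47 samples of the series. The 3 libraries labelled TAF3 came from cells that carried the reader, and the 3 control libraries came from cells that carried the same system without a reader. The libraries were chosen by their titles. All 57820 annotated genes of the HCT116 table were examined, of which 18731 passed a filter that asked for more than 18 counts summed over the 6 libraries. The reader is the PHD finger of mouse TAF3, fused to an array of SunTag peptides, so it is an added domain and not the cell's own TFIID. Cells of both groups also expressed a single-chain antibody fused to the peroxidase APEX2, which binds the peptides, and both groups received biotin-aniline and hydrogen peroxide. The control is therefore a free array with APEX2 and is not targeted to a chromatin mark. TAF3 libraries held 14213105 to 16536829 counts and control libraries 16234650 to 17445889.

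TAF3 is a subunit of TFIID, the factor that assembles the transcription machinery at promoters. Its PHD finger binds histone H3 trimethylated at lysine 4, H3K4me3, the mark of active promoters. APEX2 attaches biotin to guanosines of RNA within its reach, and streptavidin then recovers the labelled RNA, so that RNA held near marked promoters should take a larger share of the library. Chromatin-bound long noncoding RNA is a class such methods look for. The libraries were made from poly(A)+ RNA, and the paper describes its Chrom-seq signal in HEK293T cells as coming from matured RNA. A gene is called enriched here at an adjusted p under 0.05 (quasi-likelihood test of edgeR, Benjamini-Hochberg) with a log2 fold change of at least 0.75, TAF3 over control, and depleted at -0.75 or lower. "Rose" and "fell" mean an adjusted p under 0.05 at any size. Levels are CPM, counts scaled by the library's total over tested genes and its TMM normalization factor, and are not corrected for gene length. RNA-seq of HCT116 cells that carry the reader was not analysed here, so a change in what was labelled and a change in RNA level in the cells cannot be told apart.

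Colon epithelial markers were present, with KRT8, KRT18, KRT19 and EPCAM among the 13 of 17 markers that passed the filter. Of 10 markers each for other cell types, 2 fibroblast, 3 neuron and 2 blood genes passed. These included COL1A1, at 28.99 ± 0.753 CPM under the reader against 41.7 ± 3.31 CPM without it (SD over 3 libraries each), and ITGAM, at 10.1 ± 0.507 and 4.39 ± 0.503 CPM. The human TAF3 gene lay at 32.7 ± 0.338 CPM in TAF3 libraries against 24.2 ± 1.35 CPM in control libraries. The log2 difference of 0.43 (edgeR adjusted p = 7.28e-05) stayed under the fold threshold. Whether reads of the mouse TAF3 reader counted toward this human gene was not tested. Mitochondrial genes took 11.7% to 13.1% of counts in the TAF3 libraries and 13.7% to 14.1% in the control, so the groups did not overlap in this share. Nothing in the labels says that replicates came from separate cultures, so p-values measure the spread between these libraries only.

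Calls were about equal in number in both directions, with 625 enriched genes (3.34% of those tested) and 615 depleted genes (3.28%). At any size, 3353 genes rose (17.9%) and 3175 fell (17%), and TAF3 and control libraries did not overlap at 44.6% of all tested genes. Well-counted genes passed more often, and above 1000 counts per library 34.7% rose and 23.8% fell, a background against which counts of abundant list members should be read. Most calls lay at low counts. Where the mean reached 100 counts per library, 89 genes were enriched (0.814% of 10939) and 188 were depleted (1.72%). The share of enriched genes was 8.77% among genes with a mean of 10 to 30 counts and 0.534% above 1000 counts, while the share of depleted genes was highest, at 9.06%, between 30 and 100 counts.

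**Figure D1:**
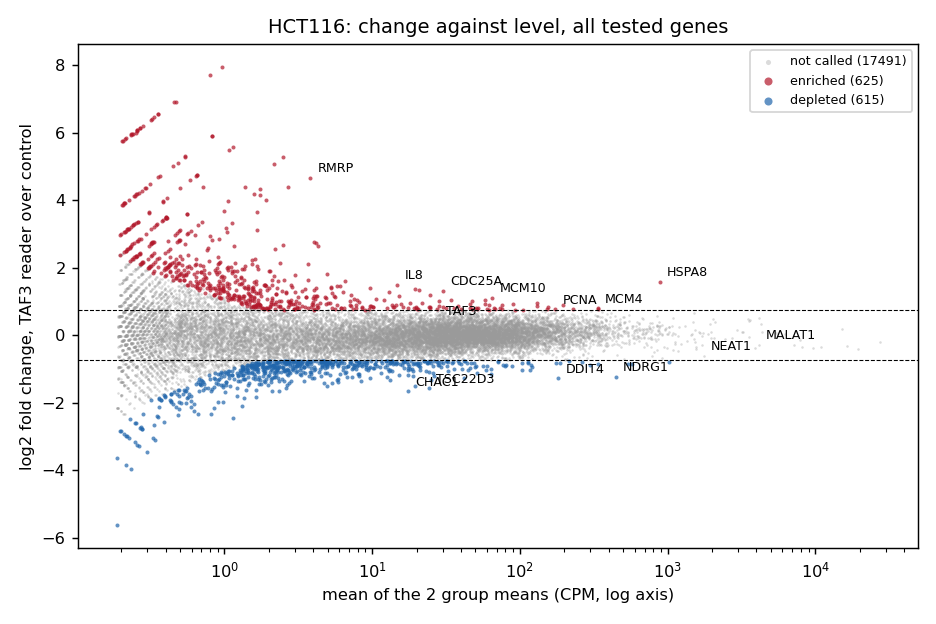
Each point is 1 of 18731 tested genes, with its mean level in CPM on a log axis and its log2 fold change, TAF3 reader over control. Enriched genes (red, 625) spread up to large folds at low levels, depleted genes (blue, 615) reach higher levels, and dashed lines mark 0.75 and -0.75.

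Genes of DNA replication moved together. All 28 genes of a list of replication genes rose, none fell, and 5 were enriched, namely MCM4, MCM10, PCNA, CCNE2 and GINS2. Their log2 fold changes ran from 0.37 (TYMS) to 1.37 (CCNE2), with a median of 0.583 against -0.00669 for all tested genes. Every alternative setting tried left 28 of 28 higher. This list and the others below were chosen with earlier results of these data known, so their counts are descriptions and not tests. In a bulk sample, more labelling of the same RNA, more cells in S phase and more RNA per cell cannot be told apart.

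MCM10, which acts with the MCM helicase at the start of replication, had 41.4, 40.4 and 42.0 CPM in the control libraries and 84.6, 90.9 and 90.2 CPM in the TAF3 libraries. The log2 fold change came to 1.10 ± 0.0678 (SE, edgeR adjusted p = 8.41e-17). PCNA, the sliding clamp of the polymerases, had 134, 122 and 129 CPM in the control and 223, 214 and 219 CPM with TAF3. In both genes every TAF3 library lay above every control library, which for MCM10 the rule for naming the largest changes required. MCM4, a subunit of the helicase, rose from 246 ± 11.9 to 428 ± 22.0 CPM (SD, n = 3 each). CCNE2, the cyclin E2 that drives entry into S phase, rose from 10.9 ± 0.328 to 28.3 ± 1.47 CPM. PCNA's fold change passed the threshold narrowly, at 0.77, and dropped to 0.73 without control replicate 2. CDC25A, the phosphatase that activates cyclin-dependent kinases at the same transition, stood outside the list but among the 10 largest rises of well-counted coding genes. It had 15.1, 18.7 and 18.02 CPM in the control and 43.7, 45.6 and 40.3 CPM with TAF3, a log2 fold change of 1.32 ± 0.0906 (SE, edgeR adjusted p = 2.08e-15). FAM111B, a protease, rose by 1.18.

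Many replication promoters carry sites of the E2F factors, which drive S phase transcription. TTTGGCGC, TTTCCCGC, TTTCGCGC or TTTGCCGC was searched on both strands, in 300 bases around each RefSeq start (250 before to 50 after it). It was present in 16 of the 24 replication promoters with a sequence, in 3.34% of all 27195 promoters of the RefSeq table and in 5.08% of those of tested coding genes. Over all enriched coding genes it was in 4.39%, and where the mean reached 100 counts in 14.3% (9 of 63) against 5.62% of tested ones. Matches may overlap each other. The sequences are from RefSeq (GRCh38.p14) and were placed on hg19 by an exact match. Stretches of 30 bases before the start are shown for CDC25A and for 4 replication genes whose stretch holds no annotated exon, in hg19 coordinates, with the match in capitals and the gene's own strand printed.
CDC25A (chr3:48229933-48229962, minus strand): ggtggattccgTTTGGCGCcaactaggaaa
GINS2 (chr16:85722573-85722602, minus strand): ctctcgccgtgGCGGGAAAacggcggccgc
PCNA (chr20:5107309-5107338, minus strand): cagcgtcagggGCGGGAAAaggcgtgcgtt
E2F1 (chr20:32274206-32274235, minus strand): gtggctctttcGCGGCAAAaaggatttggc
E2F1 (chr20:32274193-32274222, minus strand): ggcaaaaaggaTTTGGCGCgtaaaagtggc
CDT1 (chr16:88870151-88870180, plus strand): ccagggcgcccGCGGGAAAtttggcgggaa
MCM6, a further helicase subunit with a log2 fold change of 0.72, holds 4 overlapping matches in the 250 bases before its start, more than any other replication promoter located on hg19. The whole stretch is shown for their spacing.
MCM6 (chr2:136634014-136634263, minus strand): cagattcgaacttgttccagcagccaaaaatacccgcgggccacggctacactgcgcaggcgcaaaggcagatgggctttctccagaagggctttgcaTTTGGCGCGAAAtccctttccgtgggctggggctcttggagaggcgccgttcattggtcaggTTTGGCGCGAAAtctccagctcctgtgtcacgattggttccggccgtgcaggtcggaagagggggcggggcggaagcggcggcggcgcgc
The matches form 2 clusters in MCM6, and each cluster joins a forward and a reverse match. A match describes the letters only, and binding was not measured.

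**Figure D2:**
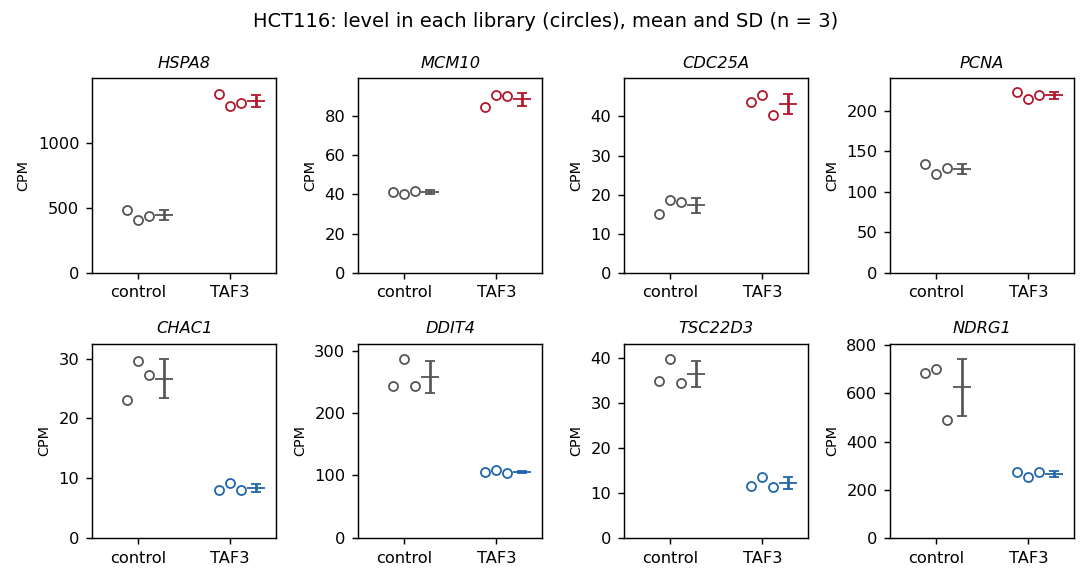
Levels in CPM of 8 genes in the 3 control and 3 TAF3 libraries (circles), with mean and SD beside them and each axis starting at 0. HSPA8, MCM10, CDC25A and PCNA lay higher in all TAF3 libraries, and CHAC1, DDIT4, TSC22D3 and NDRG1 lay lower in all of them. All but PCNA are among the largest changes, which were named only where the groups did not overlap.

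Mitosis genes did not move in the same way. Of 26 measured, 9 rose, 1 fell and none was called, with a median of 0.105, which is near the share among abundant genes. MKI67, the proliferation marker, lay at 1887 ± 77.8 CPM in TAF3 libraries against 1849 ± 85.3 CPM in control libraries (SD, n = 3 each), a log2 difference of 0.03 (edgeR adjusted p = 0.692). CENPF, a kinetochore protein, fell by 0.15 on the log2 scale. Replication-dependent histone genes were mostly at low counts, and 32 of 71 were tested. Their RNAs lack a poly(A) tail, and the libraries were made from poly(A)+ RNA. Among them 6 were enriched and 1 (HIST1H3E) was depleted, with a median of 0.504. HIST1H3E lost its call without control replicate 2 or 3, or TAF3 replicate 2. HIST2H2BE rose by 1.41 and HIST1H4H by 1.68, both at a mean under 50 counts. Histone genes are near-identical copies, and how shared reads were counted is not stated.

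Protein folding and breakdown formed the next group. Of 33 tested heat shock proteins and co-chaperones, 22 rose, 1 fell and 4 were enriched (median 0.326). HSPA8 encodes the constitutive cytosolic HSP70 and had the largest rise of any well-counted coding gene, from 485, 407 and 437 CPM in the control to 1375, 1281 and 1309 CPM with TAF3. The groups were far apart, and above 1000 counts per library 0.534% of genes were enriched. HSPA2, an HSP70 abundant in testis, rose by 1.13, and HSPB8 and HSPE1 passed the fold threshold at 0.81 and 0.78. HSPB8 dropped to 0.67 without TAF3 replicate 3 and to 0.69 without control replicate 2. HSPE1 dropped to as little as 0.66, without control replicate 1, and was also lost without control replicate 2 or TAF3 replicate 2. HSPE1 also overlaps the entry HSPE1-MOB4 on the same strand. Below the threshold, HSP90AB1 rose by 0.50, the HSP70 partner DNAJA1 by 0.60, HSPH1 by 0.60 and the mitochondrial chaperonin HSPD1 by 0.52. HSPA5 and HSP90B1, chaperones of the endoplasmic reticulum, had log2 differences of 0.01 and -0.10, neither past the test. SERPINH1, a collagen chaperone of that compartment, was the member that fell, by 0.18.

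The heat shock element was searched on both strands as 3 blocks 2 bases apart, GAA, TTC and GAA or TTC, GAA and TTC. It was present in 5 of 29 chaperone promoters, in 0.489% of all RefSeq promoters and in 0.354% of those of tested coding genes. Over all called coding genes it was in 0.676% of enriched promoters (2 of 296) and 1.17% of depleted ones (3 of 257), too few to compare. HSPA8 held it at 2 places before its start, and CHORDC1, a co-chaperone of HSP90 that rose by 0.66, held several that overlap. The HSPA8 stretches lie in annotated exons of other transcripts and are given for the element alone.
HSPA8 (chr11:122933053-122933082, minus strand): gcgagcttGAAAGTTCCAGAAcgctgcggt
HSPA8 (chr11:122932878-122932907, minus strand): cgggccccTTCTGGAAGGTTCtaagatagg
CHORDC1 (chr11:89956251-89956280, minus strand): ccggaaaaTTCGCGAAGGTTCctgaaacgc

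Proteasome subunits rose almost throughout, at small size. Of 31 tested, 27 rose and none fell, with a median of 0.419. PSMC4, an ATPase of the regulatory particle, rose by 0.75, just under the threshold, PSMC2 by 0.71 and the core subunit PSMB3 by 0.68. The single enriched member, PSMA2, rested on a mean of 6.67 counts. This PSMA2 entry overlaps a further PSMA2 entry and C7orf25 on the same strand. Cytosolic ribosomal protein genes gave 45 rises and 3 falls among 82 tested, with a smaller median of 0.173. RPL3L was enriched at a mean of 10.2 counts and lost its call without control replicate 3 or TAF3 replicate 1 or 3.

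**Figure D3:**
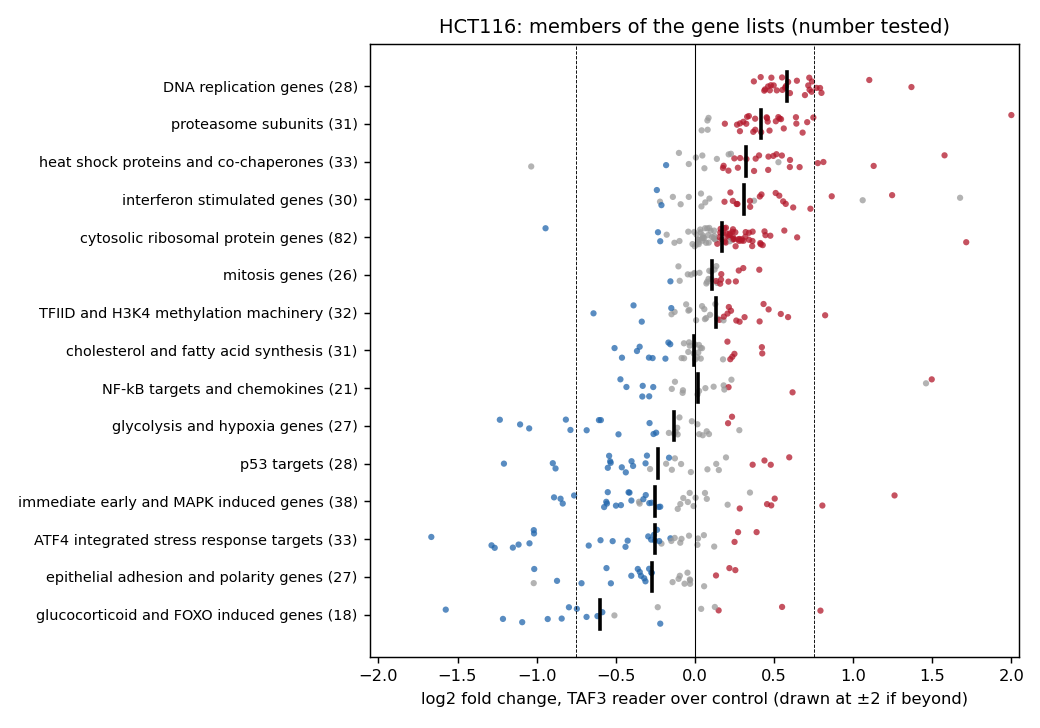
Log2 fold changes of the tested members of 15 gene lists, TAF3 reader over control, with the number tested in brackets, black bars for medians, and red or blue for an adjusted p under 0.05 in either direction. All 28 replication genes lie right of 0, whereas ATF4 targets and glucocorticoid and FOXO genes hold their largest changes on the left.

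Among 30 interferon stimulated genes 17 rose and 2 fell (median 0.309). MX2 (1.25) and RSAD2 (0.86), both antiviral effectors, were enriched, and IFIT2 rose by 0.73 and IFI27 by 0.62. STAT2 and IRF1, which control these genes, fell by 0.21 and 0.24. MX2 lay between 2.28 and 4.21 CPM in the control and between 6.26 and 9.03 CPM with TAF3. NF-kB targets gave 3 rises and 6 falls among 21, with a median of 0.0169. Over all tested genes 17.9% rose and 17% fell, so these few members are not read as a shift of the list. IL8, a chemokine that attracts neutrophils, was the enriched member, at 5.97, 8.67 and 8.49 CPM in the control and 19.7, 20.4 and 25.5 CPM with TAF3. Of 15 Wnt targets, 6 rose and 4 fell. AXIN2, a feedback inhibitor of the pathway, rose by 0.83, and PROX1 was called on 5.17 counts per library and lost its call under most alternatives. The remaining large rises of well-counted coding genes were KRTAP2-3, a hair keratin-associated protein (1.34), the neuronal immediate early gene ARC (1.26), the leukocyte integrin ITGAM (1.20) and the laminin chain LAMA2 (1.08). SNAP25, a neuron marker, was also enriched, on a mean of 8.5 counts, and lost its call without control replicate 2 or 3, or TAF3 replicate 2 or 3. The part of other cell types in these rises was not tested.

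The integrated stress response is a program in which the factor ATF4 turns on amino acid synthesis and, under lasting stress, death genes. Of its 33 tested targets 20 fell and 3 rose, and 8 were depleted (median -0.253). CHAC1, which degrades glutathione, fell most among well-counted coding genes, from 23.1, 29.5 and 27.2 CPM in the control to 8.06, 9.14 and 7.98 CPM with TAF3. DDIT4, an inhibitor of mTORC1, was at 243, 287 and 244 CPM in the control and at 105, 108 and 104 CPM with TAF3. No TAF3 library overlapped a control library in either gene, which the rule for naming the largest changes required. TRIB3, a pseudokinase that restrains AKT, changed by -1.26, SESN2 by -1.11, the cytokine GDF15 by -1.05, ADM2 and the death factor DDIT3 by -1.02 each, and PCK2, the mitochondrial PEP carboxykinase, by -1.15. ATF4 itself fell by 0.15. The enzymes of serine and asparagine synthesis moved less, with -0.44 for ASNS, -0.24 for PSAT1 and -0.26 for PHGDH. Members that rose were WARS (0.39), SHMT2 (0.27) and ATF5 (0.25). The ATF4 element TGATGNAA was present in 8 of 29 promoters of the list, in 3.67% of all RefSeq promoters and in 1.75% of those of tested coding genes. Over all called coding genes it was in 6.08% of enriched promoters (18 of 296) and 2.72% of depleted ones (7 of 257). The depleted share thus lay above that of tested coding genes but below the enriched share, on few promoters. The stretch before CHAC1 is shown because it had the largest fall. It lies in an annotated exon of another transcript.
CHAC1 (chr15:41245449-41245478, plus strand): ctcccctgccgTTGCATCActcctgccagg

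Genes induced by glucocorticoids or FOXO factors gave the lowest median of any list, -0.6, with 11 falls and 3 rises among 18 tested. TSC22D3, the glucocorticoid-induced leucine zipper protein, was at 35, 39.8 and 34.6 CPM in the control and at 11.6, 13.7 and 11.4 CPM with TAF3, a log2 change of -1.57 ± 0.0992 (SE, edgeR adjusted p = 1.75e-16). KLF9 (-1.21), the cell cycle inhibitor CDKN1C (-1.09), CCNG2 (-0.93), BCL6 (-0.84) and ERRFI1 (-0.80), a feedback inhibitor of EGFR, were depleted. ERRFI1 lay closer to the threshold, at -0.73 without control replicate 2 and -0.75 without TAF3 replicate 2, where its call was lost. SGK1, a kinase of the same list, was enriched at 0.79, so the list did not move as a block. FKBP5, a chaperone partner and classical glucocorticoid target, rose by 0.15 (edgeR adjusted p = 0.0477).

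Of 28 p53 targets 14 fell and 4 rose. GADD45A fell from 154 ± 12.2 to 82.9 ± 4.6 CPM (SD, n = 3 each), and TP53INP1 and the death gene BBC3 changed by -1.21 and -0.88. CDKN1A, the cell cycle inhibitor p21, fell by 0.40, while MDM2, the ubiquitin ligase of p53, had a log2 difference of 0.08. Glycolysis and hypoxia genes gave 12 falls and 2 rises among 27, and 5 were depleted. NDRG1, induced by hypoxia, was at 685, 701 and 490 CPM in the control and at 274, 251 and 274 CPM with TAF3. ENO2, CA9, P4HA1 and BNIP3L were depleted too, at -1.05, -1.10, -0.82 and -0.79. BNIP3L, a mitophagy receptor, dropped below the threshold without control replicate 2 (-0.69) and without TAF3 replicate 2 (-0.71). The central glycolytic enzymes did not follow, with 0.07 for LDHA, 0.05 for ENO1 and -0.11 for GAPDH.

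Immediate early and MAPK induced genes gave 19 falls and 6 rises among 38. The falls included feedback inhibitors of ERK, namely DUSP4 (-0.76), SPRY4 (-0.83) and DUSP6 (-0.57), the EGFR ligand AREG (-0.89), and PHLDA1, which fell from 693 ± 36.5 to 385 ± 8.31 CPM (SD, n = 3 each). DUSP4 was at -0.73 without control replicate 2, below the threshold. JUN rose by 0.46, SRF by 0.48 and EGR1 by 0.28, and ARC and CTGF were enriched. MYC had a log2 difference of 0.06. Epithelial adhesion genes fell in 14 of 27 cases and rose in 3. ITGB4, the hemidesmosome integrin, fell from 439 ± 54.2 to 240 ± 4.22 CPM, the laminin-binding integrin ITGA3 fell by 0.72, and the claudin CLDN3 changed by -1.02 at a mean of 73.2 counts. CDH1, E-cadherin, fell by 0.40. Other depleted coding genes of large size were BCL3, a nuclear IkB protein (-1.51), C4orf47 (-1.36), KLHL24 (-1.32), LURAP1L (-1.28) and TCP11L2 (-1.24). C4orf47 overlaps CCDC110 on the opposite strand, which was at -0.43.

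The remaining lists held few calls and had medians nearer to 0 than the replication or glucocorticoid lists. Cholesterol and fatty acid synthesis gave 6 rises and 9 falls among 31 with no call, FASN had a log2 difference of 0.04 and SCD fell by 0.27. NRF2 genes gave 4 rises and 5 falls among 19, with the transporter ABCC3 depleted (-0.92) and AKR1B10 enriched at 21.3 counts, a call lost with DESeq2. AKR1C1 and AKR1C3 were depleted but are close paralogs, and AKR1C1 lost its call without TAF3 replicate 3 (-0.68). AKR1C3, at 25.5 counts, lost it with DESeq2 and without control replicate 1 or 2, or TAF3 replicate 2 or 3. Chromosome 19 zinc finger genes gave 16 rises and 9 falls among 140, with 4 enriched, ZNF223, ZNF296, ZNF324 and ZNF546, each at under 100 counts. ZNF296 and ZNF324 lost their calls without control replicate 2 (0.70 and 0.71), and ZNF324 also without TAF3 replicate 2 (0.69). The called ZNF223 entry overlaps a further ZNF223 entry, ZNF222 and ZNF284 on the same strand. SR proteins and CLK kinases gave 7 rises and 1 fall among 17, small nucleolar RNA host genes 7 and 1 among 17, and metallothioneins 2 and 0 among 3, with MT1E at 0.46 and MT2A at 0.15. Genes of TFIID and of H3K4 methylation, the machinery around the reader's mark, gave 14 rises and 4 falls among 32. TAF9B was enriched (0.82) and fell under the threshold without control replicate 1 (0.73) and TAF3 replicate 3 (0.70). RBBP5 rose by 0.54, and the H3K4 demethylases KDM5B and KDM5C fell by 0.64 and 0.39.

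Noncoding genes, meaning every annotated type other than protein coding, made up 25% of tested genes, 35% of enriched genes and 42.6% of depleted genes. They are counted at low levels, and where the mean reached 100 counts these shares were 5.92%, 13.5% (7.17% to 22.4%, exact binomial 95% interval) and 19.7% (14.3% to 26.1%). The intervals cover counting error only. By class, lincRNAs were depleted more often than enriched, with 111 and 71 of 1376 and a median of -0.141. Processed transcripts gave 17 depleted and 6 enriched of 248. Antisense RNAs divided evenly, at 90 and 91 of 2006, as did pseudogenes at 36 and 37 of 899. Of coding genes, 406 of 14040 were enriched and 353 depleted.

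**Figure D4:**
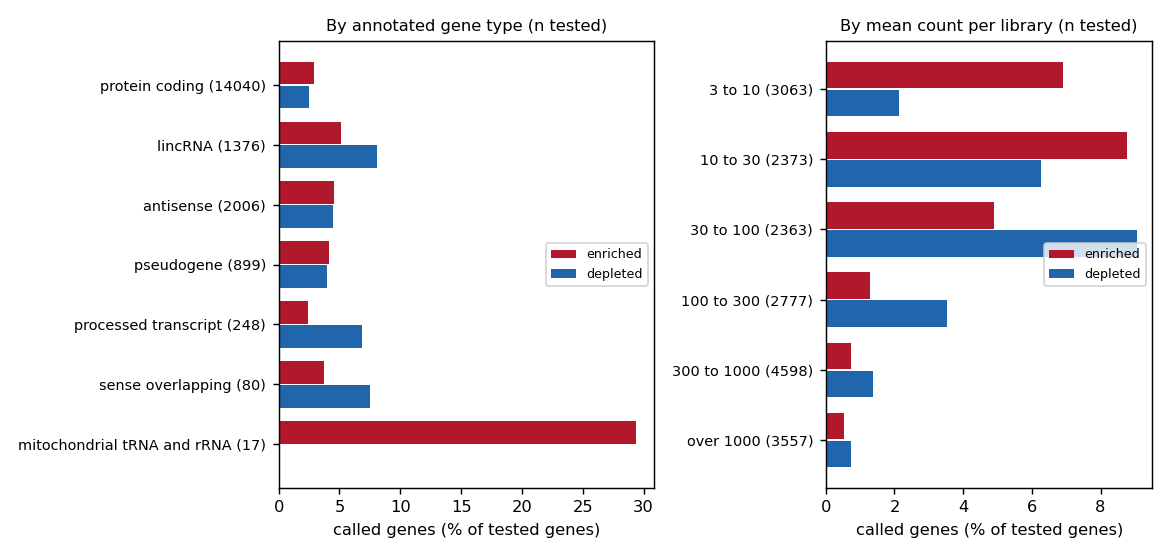
Share of tested genes called enriched (red) and depleted (blue), in percent, by annotated gene type (left) and by mean count per library (right), with the number tested in brackets. lincRNAs reach 8.07% depleted and 5.16% enriched, and the mitochondrial tRNAs and rRNAs 29.4% enriched from 17 genes.

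The reads of a noncoding gene and of a coding gene across it cannot be told apart if strand was not used in counting, and that setting is not stated. An overlap with a coding gene was annotated for 47.9% of enriched noncoding genes, 36.3% of depleted ones and 50.1% of all tested. An enriched coding gene lay across 9 of the 219 enriched noncoding genes (4.11%), across 3 of the 262 depleted ones and across 1.28% of all tested. RP11-161H23.5, antisense to the tubulin gene TUBA1C, rose from 31.1 ± 3.70 to 63.1 ± 6.42 CPM (SD, n = 3 each), and TUBA1C itself rose by 0.62. CTB-147C22.8 crosses the kallikrein gene KLK5, which was enriched too (0.92), and had 4.49, 4.74 and 5.21 CPM in the control and 7.33, 14.6 and 8.61 CPM with TAF3. Without TAF3 replicate 2, the highest library, its log2 fold change was 0.73 and its call was lost. In contrast DIAPH2-AS1 rose by 1.27 while DIAPH2 had a log2 difference of 0.09, and CTD-2541M15.1 rose by 1.16 while MCPH1 was at -0.02. RP11-100N20.1 rose by 1.39 and PRKG2, across from it, fell by 0.65.

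Among the largest noncoding falls, CTD-3184A7.4 (-1.33) has no overlapping annotated gene. DICER1-AS1 was at 12.1, 11.3 and 10.7 CPM in the control and at 4.79, 4.73 and 5.04 CPM with TAF3, while DICER1, the microRNA-processing enzyme across from it, had a log2 difference of 0.05. SEC1P fell by 1.23 on the log2 scale together with NTN5 (-1.05) and CA11 (-0.74), which it crosses. RP1-63G5.5 and RP11-1038A11.1 changed by -1.25 and -1.15. Of 34 known long noncoding RNAs 10 rose and 10 fell. NEAT1, the scaffold of paraspeckles, was at 1978, 2225 and 2184 CPM in the control and at 1308, 1458 and 1402 CPM with TAF3. MALAT1, of nuclear speckles, was at 4075 to 4896 CPM in the control and at 3615 to 3847 CPM with TAF3. Both are retained in the nucleus, both fell, and neither passed the fold threshold (-0.62 and -0.29). Among the host genes of small nucleolar RNAs, ZFAS1 rose by 0.49 and SNHG16 by 0.46, but SNHG8 was depleted at -0.79. SNHG8 lost its call without control replicate 2 (-0.74) or TAF3 replicate 2 (-0.68). HOXA11-AS was depleted at -0.92 on 50.2 counts.

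Some short structured RNAs moved the other way, several of them at low counts, but not all classes did. Of 14 tested snRNA genes none rose or fell. Of 21 miRNA genes none rose and 1 fell, and of 5 snoRNA genes none rose and 1 fell. The libraries were made from poly(A)+ RNA, and the part of that selection in these counts was not tested. RMRP, the RNA of RNase MRP, had 0.431, 0.404 and 0 CPM in the control and 1.27, 5.94 and 14.8 CPM with TAF3. The TAF3 libraries lay above the control but differed among themselves by more than the smallest of them differed from the control. RPPH1, the RNA of RNase P, had 0, 2 and 1 reads in the control and 13, 11 and 9 reads with TAF3. It lies across PARP2, which was at 0.15. Of 17 mitochondrial tRNA and rRNA genes 9 rose, 1 fell and 5 were enriched (median 0.528), whereas 9 of 13 mitochondrial messenger genes fell and 1 rose (median -0.204). MT-TE was at 4.61, 4.04 and 5.62 CPM in the control and at 8.48, 10.7 and 9.31 CPM with TAF3, and MT-TL1 at 8.37, 9.47 and 9.89 against 16.2, 17.6 and 14.5 CPM. MT-RNR1, the small ribosomal RNA, rose by 0.64, while MT-ND4 fell by 0.41 and MT-CO1 by 0.20. MT-TH was enriched on reads of TAF3 replicate 2 alone.

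Depleted coding transcripts were rich in G and C. The canonical transcripts of depleted coding genes had a median of 56.5% G and C, against 48.6% for enriched ones and 49.3% for all tested, with a transcript found for at least 95.8% of each set. With a mean of at least 100 counts the medians were 56.9%, 48.4% and 47.9%. G alone gave 27.3%, 24.4% and 24.9% in the same order as the first 3 sets. Noncoding genes differed less, with median G and C of 50.5% for depleted, 49.2% for enriched and 49.2% for all tested. Span along the genome differed less clearly. Genes over 300 kb were enriched in 8.98% of cases, but in 0.877% of cases with a mean of at least 100 counts, the same share as were depleted. These are descriptions of the called sets, and their part in the calls was not tested.

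The same reader was used in NIH3T3 cells, a mouse fibroblast line, and Neuro-2a cells, a mouse neuroblastoma line, with 3 TAF3 and 3 control libraries each. Protein-coding genes with the same symbol were compared through the difference between the log2 fold changes of the separate edgeR fits. The effect differed between HCT116 and NIH3T3 at 3572 of 10454 genes (34.2%), with 2088 higher in HCT116 and 1484 lower. Species, cell line and batch cannot be told apart in this comparison. In Neuro-2a, TAF3 replicate 1 stood apart, and 1631 of 10139 genes differed with it (16.1%) against 3125 of 10102 without it (30.9%).

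Replication genes separated the lines most fully. The effect was higher in HCT116 than in NIH3T3 for 27 of 27 matched genes, and 10 of them fell in NIH3T3 (median -0.181). Against Neuro-2a it was higher for 25 of 27, where the median was -0.294, and for 26 of 27 without TAF3 replicate 1. CDC25A changed by 1.32 in HCT116 and by -0.28 ± 0.104 in NIH3T3 (SE), a difference of 1.60 ± 0.138 (SE, adjusted p = 3.97e-14, from the edgeR fits). HSPA8 was higher by 1.74 ± 0.0881 than in NIH3T3, and 21 of 32 chaperones and 20 of 29 proteasome subunits were higher too. Among ATF4 targets 13 of 32 were lower in HCT116 than in NIH3T3 and 3 were higher. CHAC1 differed by -1.91 ± 0.162 from NIH3T3 and by -2.09 ± 0.303 from Neuro-2a, or -1.58 ± 0.150 without Neuro-2a TAF3 replicate 1 (SE). Glucocorticoid and FOXO genes were lower in HCT116 than in NIH3T3 for 10 of 16, and TSC22D3 differed by -1.35 ± 0.162. Interferon stimulated genes rose in NIH3T3 for 17 of 21 (median 1.12, against 0.348 for the same genes in HCT116), and the effect was lower in HCT116 for 13 of 21. Enriched in both HCT116 and NIH3T3 were 68 genes, of 262 enriched in HCT116 and 691 in NIH3T3 among the matched genes, and 37 genes were depleted in HCT116 but enriched in NIH3T3. Among the same genes 225 were depleted in HCT116 and 19 in NIH3T3, and none in both, a number too small to read.

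**Figure D5:**
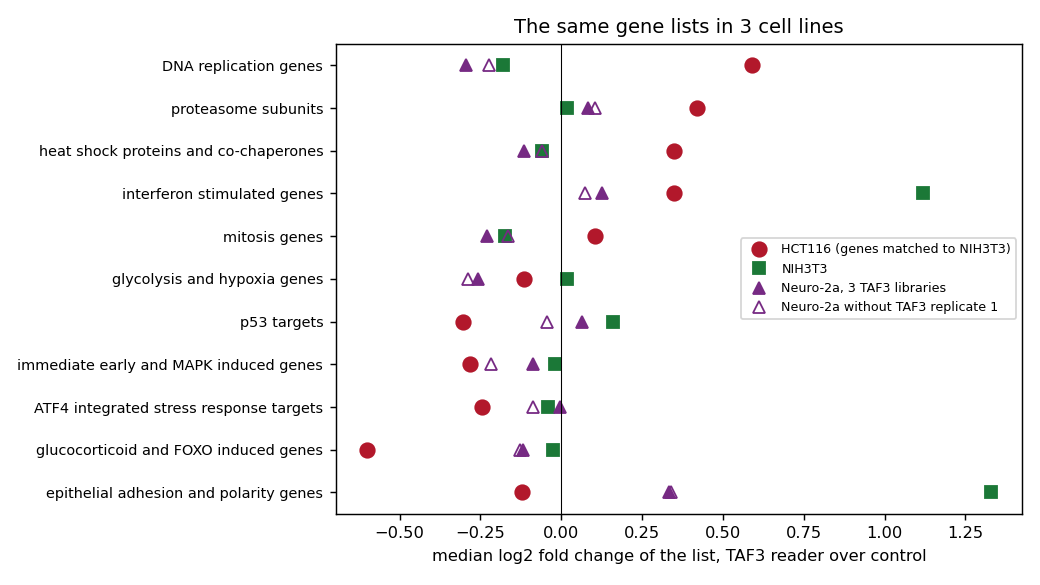
Median log2 fold change, TAF3 reader over control, of 11 gene lists in HCT116 (circles), NIH3T3 (squares) and Neuro-2a with 3 TAF3 libraries (filled triangles) or without TAF3 replicate 1 (open triangles). Replication genes have a median of 0.589 in HCT116 and of -0.181 in NIH3T3, and interferon genes reach 1.12 in NIH3T3.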

How the data were processed

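Poly(A)+ RNA recovered by Chrom-seq was sequenced from 6 HCT116 libraries, 3 per group, which were grouped by their titles. The authors deposited raw counts per gene, made from reads trimmed with fastp 0.23.1 and aligned to hg19 (mouse lines, mm10) by HISAT2 2.1.0, with featureCounts 2.0.1 for counting. The strand and shared-read settings of featureCounts are not given in the sources used here, although a separate QualiMap step of the study was set to stranded, uniquely mapped reads. The mouse tables also hold raw counts as the authors deposited them. Gene lengths in the tables were not used for levels.

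From the counts, genes with more than 18 counts over the 6 libraries went into edgeR 4.0.16 (R 4.3.3, TMM scaling, quasi-likelihood test). Calls needed a Benjamini-Hochberg adjusted p below 0.05 together with a log2 change of 0.75 or more in size. The members and lists were chosen with earlier results of these data known. Genes are named by size among calls whose mean reached 100 counts and whose groups did not overlap (10 coding and 5 noncoding in each direction), and by adjusted p within each list. Further members of lists, and the short RNA, transcript composition and overlap values, were chosen after values were seen. On simulated counts for 18394 genes the test recovered 73 of 98 genes changed by 1 log2 unit, 64 of 65 of these where the mean reached 100 counts, and called 2 unchanged genes. The difference between lines was set up after seeing the data, and recovered 150 of 200 changed genes among 10454, with 3 unchanged genes called. The planned difference from HEK293T cells was not run, because the rows of that table for the TAF3 libraries could not be tied to genes. Alternatives were DESeq2 1.42.0, other scalings and filters, the replicate block and each library left out.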

Additional observations from a re-analysis of the deposited data

Results flagged for a closer look

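The effect of the TAF3 reader differed at 3572 genes between HCT116 and NIH3T3, at 1631 between HCT116 and Neuro-2a, and at 3125 when Neuro-2a TAF3 replicate 1 was left out. The difference was tested in each case. Among DNA replication genes, 27 differed from NIH3T3 and 25 from Neuro-2a. Among ATF4 targets these numbers were 16 and 14, among heat shock proteins and co-chaperones 22 and 16, among interferon stimulated genes 14 and 3, and among proteasome subunits 20 and 10. Species, line and batch cannot be told apart in these comparisons.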

How the results depend on the processing

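The counts of 625 enriched and 615 depleted genes stayed within 1.5 times under every alternative run, from 487 to 649 enriched and from 494 to 620 depleted. DESeq2 called 504 and 494, of which 497 and 494 were shared. The noncoding share of enriched genes, 35%, was 31.2% with DESeq2, 31.0% with pseudogenes left out and 13.5% with a mean of at least 100 counts. The same-numbered libraries did not deviate together (r = -0.0885, -0.0898 and 0.0539 over 11340 genes). Pairs with different numbers ran from -0.128 to 0.186. With 3 libraries per group this check cannot exclude that the numbers pair the samples. With the replicate block, 601 genes were enriched and 601 depleted. Leaving out 1 library gave 518 to 642 enriched and 533 to 586 depleted genes. The HCT116 and NIH3T3 effects differed at 3154 to 3689 genes over all alternatives, and at 3391 with the block. Leaving out 1 library moved the log2 value of MKI67 between -0.00925 (without control replicate 1) and 0.0669, and that of the splicing factor SRSF5 down to -0.00593. SRSF5 changed sign with DESeq2 (0.00443), DESeq2 size factors (0.00442), filterByExpr (0.00925), without control replicate 1 (0.00369) and without TAF3 replicate 1 (0.00341) or 3 (0.00123), none past the test. For single genes, 48 of the alternative values lost a call and 1042 kept their side and direction. The causes were not tested. The difference from HEK293T was not run. Low counts limit most noncoding genes.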

Other observations

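The lists above were chosen with earlier results of these data known, and those here after the values were seen. Both are descriptions only. Of 37 tested ribosome biogenesis factors 36 rose and none fell, with 5 enriched and a median of 0.489. MRTO4 rose by 0.92, GRWD1 by 0.90, NIP7 by 0.80, nucleophosmin NPM1 by 0.49 and nucleolin NCL by 0.43. NIP7 and PNO1, enriched at 0.82, each lost the call without 1 library (0.73 and 0.75). Of 11 alpha and beta tubulins 8 rose and none fell (median 0.567), and TUBA4A was enriched at 0.85. Cytosolic aminoacyl-tRNA synthetases gave 9 rises and 2 falls among 20, and lysosome and autophagy genes 6 and 8 among 23. All 6 tested short RNAs made by RNA polymerase III rose and 4 were enriched, RN7SK among them at 3.01, 4.68 and 1.81 CPM in the control and 2.79, 12.3 and 14.5 CPM with TAF3, so its groups overlapped. RN7SL1 and RN7SL2 also overlapped between groups, and without 1 library their log2 values went down to 0.28 and -0.01. RN7SL3 kept its call in 4 of 6 fits that left out 1 library. The part of poly(A)+ selection in the counts of these short RNAs was not tested.

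Of the enriched genes 104 had at most 3 control counts in all, and 88 of these had at least 3 reads in each TAF3 library. They passed the filter through the TAF3 libraries and so had to differ. SMOC2, an extracellular matrix protein, had 28, 37 and 39 reads with TAF3 and 1, 0 and 1 in the control. GRIK3, a kainate receptor, had 29, 22 and 46 reads with TAF3 and 1, 1 and 0 in the control. IGHM, an immunoglobulin heavy chain, had 31, 15 and 28 reads with TAF3 and none in the control, at least 26.9-fold higher against a floor of 3 counts over the group. OTX2 had 8, 9 and 68 reads with TAF3 and none in the control, most of them in replicate 3. In the other direction, 23 depleted genes had at most 3 TAF3 counts in all, and 18 of them were noncoding.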
